A study of Mus musculus with 10 samples.

Results

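Gpr126, Gpr107, Kcnk2, Camk1d and Pde4d are 5 genes for membrane receptors, a potassium channel and enzymes of second messenger signalling. They were selected on the usage differences and adjusted p-values in the authors' deposited tables of intronic polyadenylation (IPA), which name 1453 genes, and every table entry for them is described. They held 7 of the 2075 distinct IPA sites and 17 of the 2311 table entries. For that reason the listed differences are described without a test. The 3' ends of poly(A)+ RNA were sequenced in 10 libraries, 2 for each of 5 groups of the 4T1 family of mouse mammary tumour cells. The groups were 4T1 cells whose U1 small nuclear RNA was blocked by an antisense morpholino, given with 6 µl/mL of the Endo Porter delivery reagent (4T1-U1-ASO), the metastatic lines 4T1 and 4T07, and the non-metastatic lines 168FARN and 67NR. The design speaks of mock-transfected 4T1 cells, but no treatment is stated on the 4T1 labels. Each line is a single line, so a difference between metastatic and non-metastatic lines cannot be told apart from a difference between these particular lines. Whether paired libraries are separate cultures is not stated, so the p-values below reflect the spread of these libraries alone, part or all of which may be technical. Because the cells were measured in bulk, fewer cells with a transcript and less transcript per cell cannot be told apart.

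Intronic polyadenylation ends a transcript inside an intron, before the last exon of the gene, so the RNA lacks the downstream coding exons. U1, besides its role in splicing, is known to hold back cleavage and polyadenylation at such sites. Gpr126 (Adgrg6 in current nomenclature) is an adhesion G protein-coupled receptor known for its part in myelination by Schwann cells, and Gpr107 is a membrane protein of the secretory pathway. Kcnk2 encodes the TREK-1 two-pore-domain potassium channel, Camk1d a calcium- and calmodulin-dependent kinase, and Pde4d a phosphodiesterase that degrades cyclic AMP.

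Each site is given on mm9, with 1-based positions as in the tables, and is called intronic on the authors' word, since no mm9 annotation was used here. The Gpr126 site is at chr10:14214960-14215118 on the minus strand. Gpr107 has sites at chr2:31047406-31047633 and chr2:31047836-31048289 on the plus strand. The Kcnk2 site is at chr1:191101183-191101680 on the minus strand. The Camk1d site is at chr2:5300097-5300413 on the minus strand. Pde4d has sites at chr13:109864609-109864875 and chr13:109997308-109997759 on the plus strand. The sites were 159 to 498 bp wide. The main downstream peak of a gene was taken as the peak with most reads past the site on its strand that never exceeded the gene's last-exon reads, and its assignment to the gene rests on that rule alone. It lay 92.6 kb past the Gpr126 site, 85.6 kb past the Camk1d site, 69.4 kb past the Kcnk2 site and 24.5 and 23.9 kb past the Gpr107 sites. In Pde4d it lay 880.1 and 747.2 kb past the sites.

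The promoters of Gpr126 and Camk1d are shown because reads at the last exons of both genes were high in the same lines, as described below. They are RefSeq sequences of GRCm38.p6, 300 bases each, and their positions are not on the same build as the sites. Capitals mark matches to the cyclic AMP response element half-site TGACG, searched on both strands (TGACG or CGTCA).
Gpr126 promoter, chr10:14544987-14545286, minus strand: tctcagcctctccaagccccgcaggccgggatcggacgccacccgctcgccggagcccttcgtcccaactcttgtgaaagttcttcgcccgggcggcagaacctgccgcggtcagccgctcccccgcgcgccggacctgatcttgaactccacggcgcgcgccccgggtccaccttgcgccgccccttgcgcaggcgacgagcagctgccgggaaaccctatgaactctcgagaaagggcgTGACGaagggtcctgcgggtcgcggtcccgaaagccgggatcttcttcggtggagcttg
Camk1d promoter 1, chr2:5714713-5715012, minus strand: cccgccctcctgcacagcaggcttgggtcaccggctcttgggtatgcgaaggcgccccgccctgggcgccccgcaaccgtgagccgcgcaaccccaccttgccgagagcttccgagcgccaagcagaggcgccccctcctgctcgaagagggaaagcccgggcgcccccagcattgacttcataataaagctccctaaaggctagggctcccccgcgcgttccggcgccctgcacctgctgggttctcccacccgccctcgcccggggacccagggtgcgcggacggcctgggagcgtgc
Camk1d promoter 2, chr2:5675997-5676296, minus strand: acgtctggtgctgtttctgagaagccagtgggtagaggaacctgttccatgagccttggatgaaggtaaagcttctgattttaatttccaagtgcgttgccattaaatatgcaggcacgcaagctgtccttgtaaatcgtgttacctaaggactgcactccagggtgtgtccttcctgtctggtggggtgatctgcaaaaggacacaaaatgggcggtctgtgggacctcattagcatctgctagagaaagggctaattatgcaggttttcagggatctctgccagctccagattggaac
The Gpr126 promoter held 1 match and the Camk1d promoters held 0. Of 32851 mouse promoter windows of the same length, 20.8% held a match. The Gpr126 window and the first Camk1d window held 38 and 29 CG dinucleotides, against a median of 7 over all windows, while the second Camk1d window held 5. A match or its absence describes these letters only.

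IPA usage is the percentage of site reads among site and last-exon reads of a library. Reads were recovered from the deposited normalized values, and 100% of values came out whole within 0.1 read. Values are mean ± SD over 2 libraries. Intervals and limits given below cover counting error only.

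Gpr126 differed between metastatic and non-metastatic lines at its last exon, while the few reads at its intronic site overlapped. The site had 10 and 6 reads in the 4T1 libraries, 4 and 2 in 4T07, 4 and 7 in 168FARN and 9 and 8 in 67NR. The last exon had 78 and 166 reads in 4T1, 118 and 101 in 4T07, 0 and 1 in 168FARN and 0 and 0 in 67NR. All 4 metastatic libraries were thus far above all 4 non-metastatic libraries at the last exon, while site reads overlapped between the 2 kinds of line. Usage was 7.43% ± 5.57 in 4T1, 2.61% ± 0.945 in 4T07, 93.8% ± 8.84 in 168FARN and 100% in 67NR. Since the 67NR libraries held 17 site reads and 0 last-exon reads in all, their usage could be as low as 82.4% at the limit of 3 reads that a count of 0 allows. The order of usage was 67NR, 168FARN, 4T1 and 4T07, and the neighbours 67NR and 168FARN, and likewise 4T1 and 4T07, differed by less than the larger SD. Both 4T1 libraries had higher usage than the 4T07 libraries, but the 4T1 libraries differed from each other by more than the 2 lines' means did.

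Kcnk2 was the only member whose site was used more in a metastatic than in a non-metastatic line in some of the authors' deposited tables and less in another. The site had 146 and 228 reads in 4T1, 185 and 255 in 4T07, 315 and 454 in 168FARN and 166 and 164 in 67NR. The last exon had 28 and 43 reads in 4T1, 100 and 120 in 4T07, 26 and 24 in 168FARN and 216 and 239 in 67NR. The site was thus highest in 168FARN, and the last exon was highest in 67NR. Usage was 84.0% ± 0.159 in 4T1, 66.5% ± 2.18 in 4T07, 93.7% ± 1.84 in 168FARN and 42.1% ± 1.95 in 67NR. The 4 lines did not overlap, and the order was 168FARN, 4T1, 4T07 and 67NR. Exact 95% binomial (Clopper-Pearson) intervals for single libraries started at 89.0% and 92.6% in 168FARN. Those of 67NR ran from 38.4% to 48.6% and from 35.9% to 45.7%. In the authors' deposited table the log2 fold change was -2.64 for 4T07 against 168FARN, 1.32 for 4T07 against 67NR and 2.38 for 4T1 against 67NR. The site was not listed for 4T1 against 168FARN.

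Camk1d resembled Gpr126 in that metastatic and non-metastatic lines differed mainly at the last exon. The site had 33 and 19 reads in 4T1, 39 and 36 in 4T07, 37 and 33 in 168FARN and 32 and 25 in 67NR. The last exon had 24 and 51 reads in 4T1, 135 and 132 in 4T07, 0 and 0 in 168FARN and 1 and 0 in 67NR. Site reads stayed between 19 and 39 in all 8 libraries, whereas last-exon reads separated 4T07, 4T1 and the non-metastatic lines. Usage was 42.5% ± 21.7 in 4T1, 21.9% ± 0.697 in 4T07, 100% in 168FARN and 98.5% ± 2.14 in 67NR. The 70 site reads and 0 last-exon reads of 168FARN allow a usage as low as 95.7%. The 2 non-metastatic lines did not differ beyond their spread.

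Pde4d had fewer reads than Kcnk2 or Camk1d and differed in site reads and in last-exon reads. The site nearer the gene end had 3 and 4 reads in 4T1, 1 and 2 in 4T07, 9 and 7 in 168FARN and 25 and 21 in 67NR. The last exon had 11 and 22 reads in 4T1, 31 and 29 in 4T07, 2 and 7 in 168FARN and 6 and 3 in 67NR. Both non-metastatic lines were above both metastatic lines at the site and below them at the last exon, with no overlap. Usage was 18.4% ± 4.27 in 4T1, 4.79% ± 2.35 in 4T07, 65.9% ± 22.5 in 168FARN and 84.1% ± 4.85 in 67NR. Usage in the 168FARN libraries was 81.8% and 50.0%, on 11 and 14 reads, so the difference from 67NR was within their spread. The other Pde4d site was listed only for 4T07 against 67NR, with 0 and 0 reads in 4T07 and 5 and 6 reads in 67NR. Its usage was 0% in 4T07 and 56.1% ± 15.0 in 67NR, and 60 last-exon reads with 0 site reads in 4T07 allow a usage of up to 5.00%. Both sites share the same last-exon reads and are not independent. The authors' deposited table gave the nearer site an adjusted p of 0.065 for 4T1 against 67NR, the weakest of the 17 entries.

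**Figure D1:**
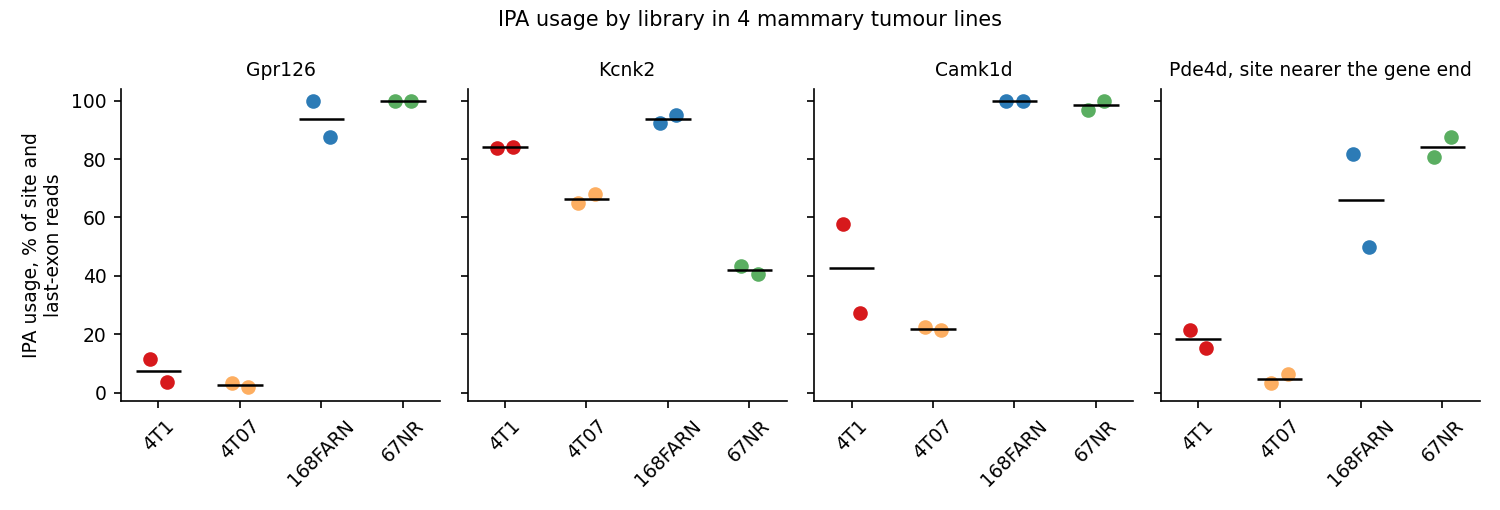
IPA usage (y axis, % of site and last-exon reads) in each library of the 4 lines; points are libraries and bars are the means of 2. Gpr126 and Camk1d were near 100% in 168FARN and 67NR, while Kcnk2 was at 93.7% in 168FARN and 42.1% in 67NR.

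**Figure D2:**
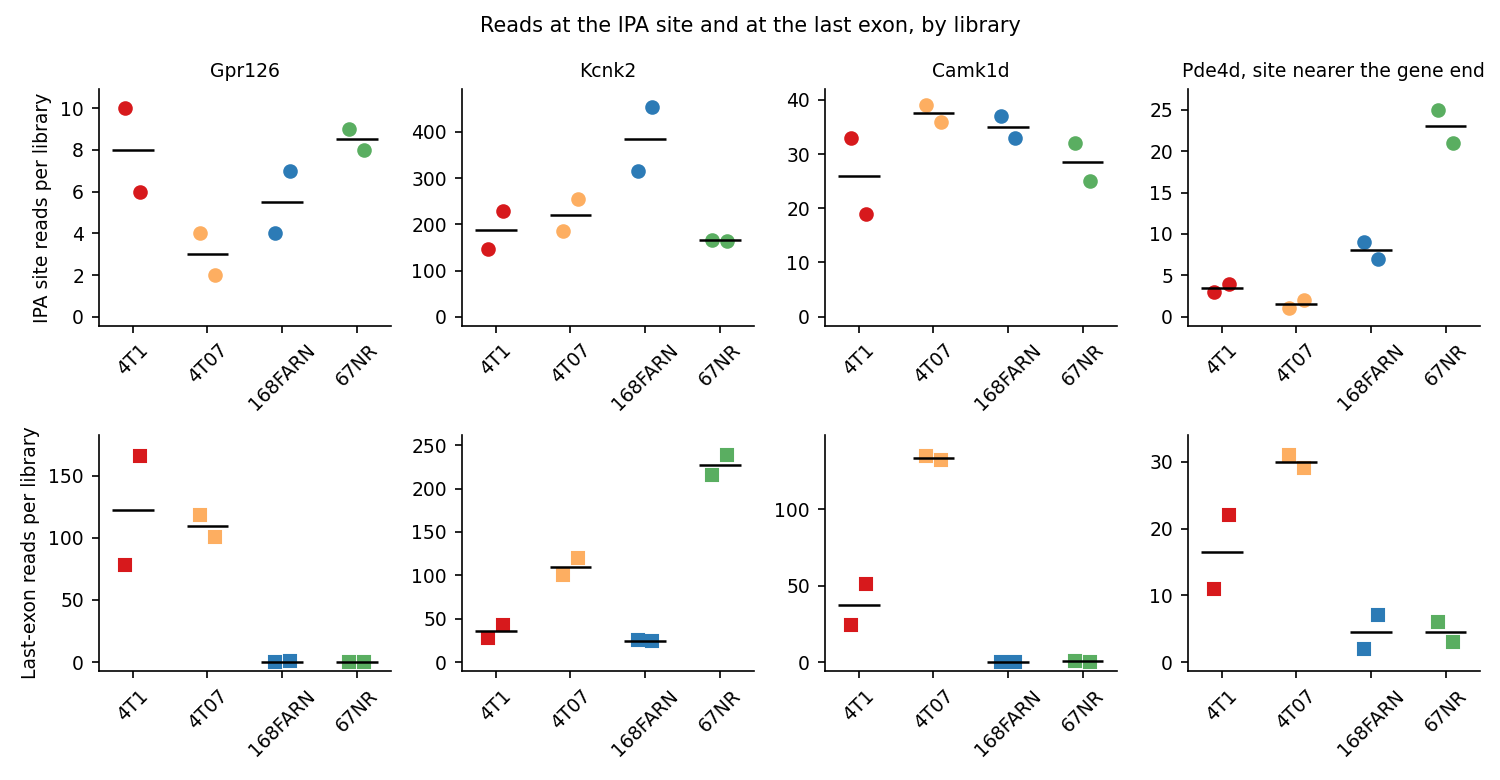
Reads per library at the IPA site (top) and at the last exon (bottom) of 4 genes in the 4 lines; points are libraries, bars are means of 2, and each panel has its own scale. Last-exon reads of Gpr126 and Camk1d were 0 or 1 in every 168FARN and 67NR library.

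The lines of one kind were not compared by the authors, and these comparisons were fitted here on the recovered reads. Only sites that the authors listed for both lines, each against a line of the other kind, could be fitted. Of these, the sites that passed a low-count filter were tested, and the shares below are over them. The sites had been listed for other pairs of lines that share libraries with these, so the fits are not independent of the listing. For Kcnk2, the authors' log2 fold changes against the same 67NR libraries, 2.38 in 4T1 and 1.32 in 4T07, already gave the direction of usage. They did so too for Camk1d (-2.1 in 4T1 and -3.85 in 4T07), Gpr126 (-2.95 and -3.82) and the nearer Pde4d site (-1.67 and -2.74). Last-exon reads entered these values, so the p-values below are not independent of the choice of these genes. Between 4T1 and 4T07, edgeR's quasi-likelihood test called 14 of 124 sites (11.3%) for the site relative to the last exon, 25 of 66 (37.9%) for site reads and 55 of 120 (45.8%) for last-exon reads, at an adjusted p under 0.05. For Kcnk2 the site relative to the last exon was higher in 4T1 by 1.401 ± 0.309 on the log2 scale (SE, edgeR adjusted p = 0.0102). Its last-exon reads fell by 1.47 in 4T1 relative to 4T07 (edgeR adjusted p = 1.8e-05), whereas the site reads differed by -0.08 ± 0.26 (edgeR adjusted p = 0.803). Without 4T07 replicate 1 or 2 the Kcnk2 usage difference was 1.305 or 1.505, with an edgeR adjusted p of 0.272 or 0.217. For Camk1d the last-exon reads fell by 1.69 in 4T1 (edgeR adjusted p = 2.29e-07), while the difference in site reads was -0.36 ± 0.37 (edgeR adjusted p = 0.490) and that of the site relative to the last exon was 1.33 ± 0.59 (edgeR adjusted p = 0.213). The last of these was 0.41 without 4T1 replicate 1 and 2.29 without 4T1 replicate 2 (edgeR adjusted p = 0.863 and 5.7e-05), so its size rests on which 4T1 library is kept. For Gpr126 the site reads differed by 1.54 ± 0.67 (edgeR adjusted p = 0.0601) and the last-exon reads by 0.28 ± 0.25 (edgeR adjusted p = 0.343). The Gpr126 site relative to the last exon, at 1.28 ± 0.88 (edgeR adjusted p = 0.446), was 0.37 without 4T1 replicate 1 and 2.18 without 4T1 replicate 2. For Pde4d neither the last-exon reads, at -0.71 ± 0.46, nor the site relative to the last exon, at 2.02 ± 1.11, passed the test (edgeR adjusted p = 0.184 and 0.318).

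Between 168FARN and 67NR the test called 21 of 102 sites (20.6%) for the site relative to the last exon, 39 of 91 (42.9%) for site reads and 46 of 95 (48.4%) for last-exon reads. Kcnk2 differed in site reads and in last-exon reads. The authors listed it in opposite directions against 168FARN and 67NR in the same libraries, which fixes the direction of this comparison, so its values are given as a description with no test. The fitted difference of 168FARN minus 67NR was 1.32 ± 0.24 (SE) for site reads, -3.07 ± 0.29 for last-exon reads and 4.38 ± 0.36 for the site relative to the last exon. The nearer Pde4d site had fewer reads in 168FARN by -1.404 ± 0.539 (edgeR adjusted p = 0.0303), and the call was lost with TMM scaling (-1.03, edgeR adjusted p = 0.0946). Its last-exon reads, at 0.10 ± 0.95, and the site relative to the last exon, at -1.49 ± 1.30, did not pass the test (edgeR adjusted p = 0.939 and 0.516), and the last of these ranged from -2.33 to -0.22 when 1 library was left out. Site reads differed by 0.40 ± 0.35 for Camk1d and -0.51 ± 0.50 for Gpr126, and neither passed the test (edgeR adjusted p = 0.364 and 0.461). No usage difference is given for these 2 genes, since their last exons had at most 1 read per library in both lines.

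**Figure D3:**
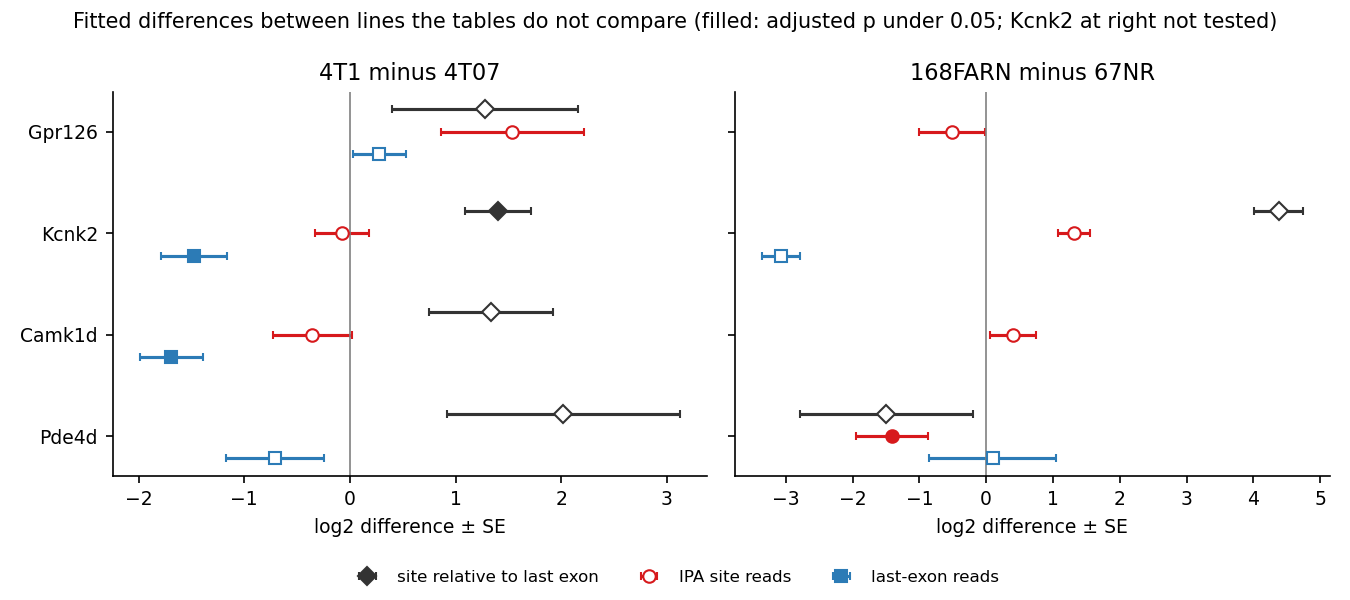
Fitted log2 differences ± SE (x axis) for 4T1 minus 4T07 and 168FARN minus 67NR, for the site relative to the last exon, site reads and last-exon reads; filled symbols had an adjusted p under 0.05 by edgeR's quasi-likelihood test, and Kcnk2 in the right panel is a description with no test. There its site relative to the last exon lies at 4.38 and its last-exon reads at -3.07.

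Gpr107 was the only member listed under U1 block. Its first site had 0 and 0 reads in 4T1-U1-ASO and 10 and 9 in 4T1. Its second site had 0 and 0 reads in 4T1-U1-ASO and 5 and 6 in 4T1. The last exon had 123 and 156 reads in 4T1-U1-ASO and 82 and 67 in 4T1. On the authors' normalized scale the last exon had 98.1 and 123.0 reads in 4T1-U1-ASO and 113.6 and 69.3 in 4T1, so the groups overlapped. Usage was 0% in 4T1-U1-ASO at each site, where 279 last-exon reads allow up to 1.08%, against 11.4% ± 0.688 and 6.98% ± 1.75 in 4T1. In the authors' deposited table of the U1 comparison 1368 of 1561 sites were higher in 4T1-U1-ASO, and both Gpr107 sites were among the 193 that were lower.

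In the deposited peak lists both Gpr107 sites fall in 1 merged peak, and 2 downstream peaks sum to the last-exon reads of the table in all 4 libraries. The merged site peak had no listed reads in 4T1-U1-ASO, 15 and 15 in 4T1, 10 and 6 in 4T07, 27 and 24 in 168FARN and 9 in 67NR replicate 1. The 2 downstream peaks held 123 and 156 reads in 4T1-U1-ASO, 82 and 67 in 4T1, 101 and 126 in 4T07, 103 and 97 in 168FARN and 97 in 67NR replicate 1. The list of 67NR replicate 2 does not cover chromosome 2. Usage from the lists was 16.9% ± 2.0 in 4T1, 6.78% ± 3.16 in 4T07, 20.3% ± 0.661 in 168FARN and 8.49% in the 67NR library. The order was 168FARN, 4T1, 67NR and 4T07, and the single 67NR library lay between the 4T07 libraries. Reads at the site peak were lower in 4T07 than in 168FARN by -1.54 ± 0.49, which did not pass the test over 24287 merged peaks (edgeR adjusted p = 0.128), of which 14.0% were called. With only peaks listed in every library compared, a choice made after seeing the data, the same difference had an edgeR adjusted p of 0.0356. The site peak differed by -0.60 ± 0.47 between 4T1 and 168FARN and by 0.93 ± 0.49 between 4T1 and 4T07 (edgeR adjusted p = 0.470 and 0.322), comparisons in which 16.2% and 14.9% of peaks were called. The main downstream peak did not pass the test in any of these 3 comparisons.

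**Figure D4:**
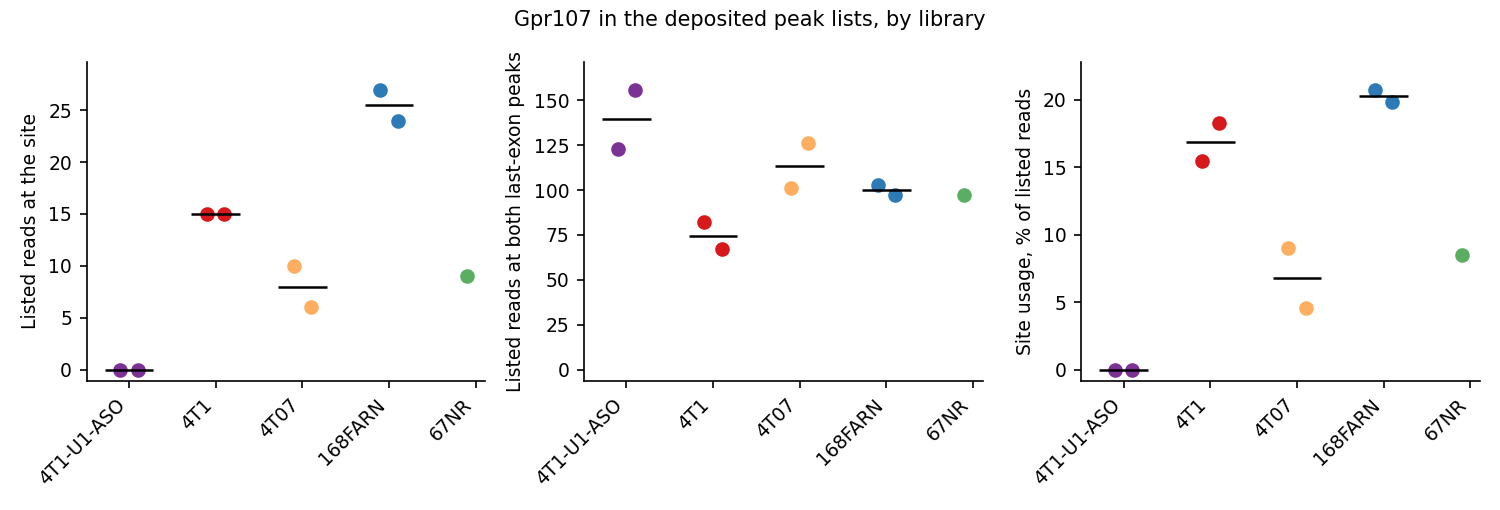
Listed reads of Gpr107 at the merged site peak and at both last-exon peaks, and the usage they give (y axes), by library in 5 groups; points are libraries and bars are means of 2, with 1 library for 67NR. The 4T1-U1-ASO libraries had no listed site reads, against 15 in each 4T1 library.

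The other members were not listed under U1 block, and their peaks were read from the peak lists. A missing peak in a list is not a count of 0: of 5739 site and library pairs with at least 5 reads in the tables, 27.6% had no listed peak. The share was 37.8% and 39.4% in the 4T1 libraries and 26.1% and 31.5% in the 4T1-U1-ASO libraries. A difference is therefore given only for member peaks that every list of the comparison held. The fits themselves covered all 24287 merged peaks that passed the low-count filter, with a peak missing from a list entered as 0. Of these peaks, 17.8% were called between 4T1-U1-ASO and 4T1, with 23.3% of the called peaks higher in 4T1-U1-ASO. Under DESeq2's size factors 38.5% of the called peaks were higher. That scaling raised the log2 difference of the Gpr107 main downstream peak by 0.23, and the shift was not the same for every peak.

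The main downstream peak of Kcnk2 had 19 and 17 reads in 4T1-U1-ASO and 28 and 42 in 4T1. It fell by 1.31 on the log2 scale with an SE of 0.20 (edgeR adjusted p = 0.00685). Without 4T1-U1-ASO replicate 2 the adjusted p was 0.0539, and with only the libraries compared it was 0.0730, both by edgeR. The Camk1d site had 28 and 38 reads in 4T1-U1-ASO and 33 and 19 in 4T1, a difference of -0.05 ± 0.40 (edgeR adjusted p = 1). Its main downstream peak had 59 and 43 reads in 4T1-U1-ASO and 9 and 34 in 4T1, a difference of 0.92 ± 0.62 that did not pass the test (edgeR adjusted p = 0.374). With the authors' factors these became 47.1 and 33.9 reads in 4T1-U1-ASO and 12.5 and 35.2 in 4T1, which overlap. The difference was 0.31 without 4T1 replicate 1 and 2.02 without 4T1 replicate 2 (edgeR adjusted p = 0.667 and 0.0609). That peak held 9 of 24 and 34 of 51 last-exon reads in 4T1. The Gpr126 main downstream peak had 95 and 56 reads in 4T1-U1-ASO and 35 and 91 in 4T1, a difference of -0.07 ± 0.53 (edgeR adjusted p = 0.998). The sites of Gpr126, Kcnk2 and Pde4d were absent from both 4T1-U1-ASO lists and were not compared.

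**Figure D5:**
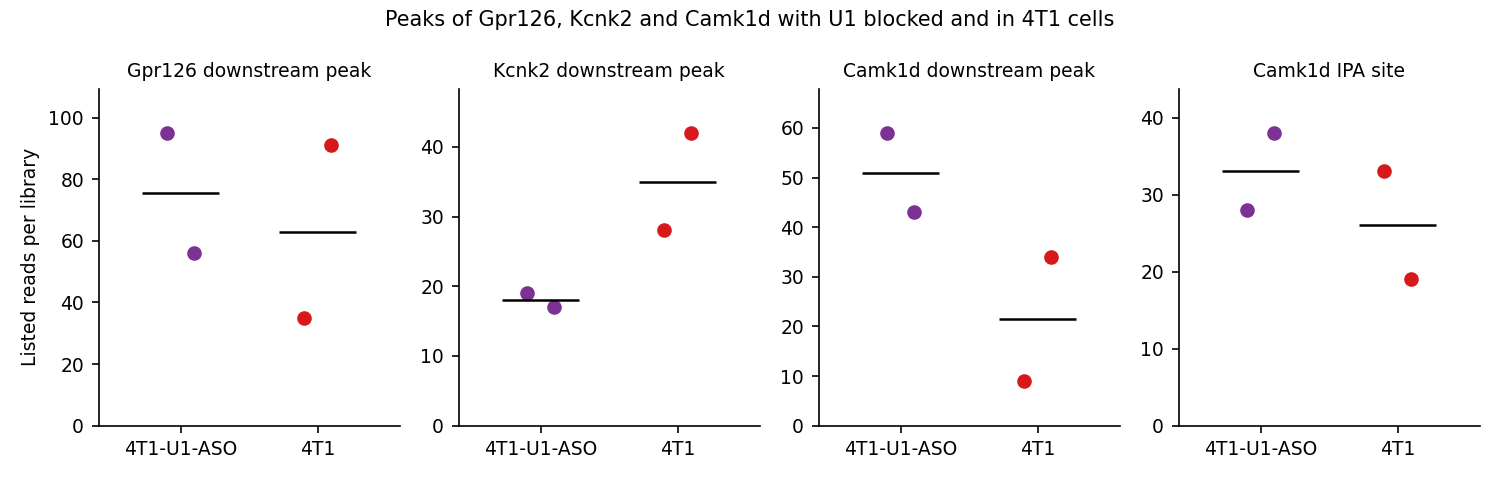
Listed reads (y axis) at peaks of Gpr126, Kcnk2 and Camk1d in 4T1-U1-ASO and 4T1 libraries; points are libraries and bars are means of 2. The Kcnk2 downstream peak had 19 and 17 reads in 4T1-U1-ASO, against 28 and 42 in 4T1.

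Usage patterns were set against those of all 45 listed sites with reads in every library of the 4 lines, by the root mean square difference in usage over 8 libraries. A site entered only if the authors listed it as differing in comparisons that together covered the 4 lines. Most listed sites were lower in the metastatic line, so likeness among these sites is in part set by the listing. Gpr126 was nearest to Nsd1 at 6.05 percentage points, Dhx40 at 6.71 and Spint2 at 13.3. Camk1d was nearest to Nsd1 at 19.2, Gpr126 at 21.3 and Dhx40 at 23.8. The nearer Pde4d site was nearest to Gpr126 at 17.8, Dhx40 at 19.4 and Nsd1 at 20.8. Kcnk2 was nearest to Prickle2 at 13.2, Eif4e2 at 20.8 and Camk1d at 42.4. Nsd1 and Dhx40 were among the nearest for Gpr126, Camk1d and Pde4d but not for Kcnk2.

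Other genes of the same pathways were counted from 4 lists. In all, 284 genes were listed for 4T07 and 79 for 4T1 against 168FARN. Against 67NR, 200 were listed for 4T07 and 117 for 4T1, and under U1 block 1131 were. How many genes of a list had enough reads to be listed is not known, so being the only one listed does not set a gene apart. Among 88 G protein-coupled receptors, 3 were listed for 4T07 against 168FARN. Beside Gpr126 these were Lpar1, a lysophosphatidic acid receptor, at a log2 fold change of 2.06 in the authors' deposited table, and Gpr98, another adhesion receptor, at -1.52. Gpr126 was the only listed receptor in the other 3 line comparisons. Among 68 potassium channels Kcnk2 alone was listed. Among 64 genes of cyclic AMP signalling, Pde4d and the adenylyl cyclase Adcy9 were listed in line comparisons, each lower in the metastatic line. Most listed sites were lower there too. Against 168FARN these were 262 of 329 sites for 4T07 and 64 of 85 for 4T1. Against 67NR they were 176 of 214 sites for 4T07 and 93 of 122 for 4T1. Adcy9 site usage was 97.6% ± 0.137 in 4T07 and 100% in 168FARN. Among 60 genes of calcium and calmodulin signalling, 5 were listed for 4T07 against 168FARN, all lower in 4T07, where 262 of all 329 listed sites were lower, with a median of -1.83 against -1.59 over all listed sites. Beside Camk1d these were the phospholipase Plcb3 at -1.99, the G protein subunit Gnaq at -1.83, the calcineurin subunit Ppp3cb at -1.38 and the kinase Camkk2 at -1.23, all from the authors' deposited table. Under U1 block 9 sites in 7 of these calcium genes were listed, all higher in 4T1-U1-ASO, as were 87.6% of all 1561 listed sites, with a median of 2.29 against 1.85. The 6 listed sites of cyclic AMP genes under U1 block, 4 of them in the stimulatory G protein gene Gnas, were also all higher, against the same 87.6%, while both Gpr107 sites were lower.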

How the data were processed

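The build mm9 and the tools DESeq2 1.4.5, Bowtie2 2.2.5, bedtools 2.17.0 and SAMtools 1.1 are named, without roles, per the submitters' processing notes. The authors deposited a filtered list of peaks for each library, holding 1 read count per peak, and the sources used here do not give the filter. The lists held 1427728 to 3347776 reads per library. Per the file headers, the deposited tables hold the authors' log2 fold change, its error, a test score, p-value and adjusted p-value per site, all at most 0.1, and a normalized read signal for site and last exon per library. The sign was turned in the tables against 67NR so that each difference is the first-named group minus the second. Reads were recovered by dividing each signal column by the value of 1 read.

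Peaks of the 10 lists that overlapped on a strand were merged and tested with edgeR 4.0.16 (R 4.3.3, quasi-likelihood, TMM, default low-count filter, all 5 groups together). Chromosomes covered by every list were fitted with all 10 libraries. The other chromosomes, chromosome 2 among them, were fitted separately without 67NR replicate 2. Usage between lines was tested on recovered reads as the site-by-line interaction, and site and last-exon reads alone, scaled by the authors' factors joined through the shared lines. The low-count filter there was edgeR's, set to 5 reads, scaled for library size, in as many libraries as the smallest group has, and 10 in all. For usage it could be met by site or last-exon reads. Benjamini-Hochberg adjustment ran over all features of a comparison, for peaks across both fits, with a threshold of 0.05. The scripts were tested on simulated data. DESeq2 1.42.0 served as an alternative. Members, gene lists and tests were chosen with earlier results of these data known. The named genes of a list were drawn from all those listed where 6 or fewer were, otherwise from the 3 with the largest change each way. Not every gene that this rule covers is named. Cell type markers were not checked, since no mm9 annotation was used here.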

Additional observations from a re-analysis of the deposited data

Results flagged for a closer look

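Kcnk2 usage differed between lines of the same kind. The site relative to the last exon was higher in 4T1 than in 4T07 by 1.401 on the log2 scale (edgeR adjusted p = 0.0102). That call was lost without 4T07 replicate 1 or 2 (edgeR adjusted p = 0.272 and 0.217) and with DESeq2 (adjusted p = 0.0904). The fitted difference of 168FARN minus 67NR was 4.378. It was not tested, since Kcnk2 was chosen with its opposite differences of 4T07 from 168FARN and from 67NR known. The authors' log2 fold changes against 67NR, 2.38 for 4T1 and 1.32 for 4T07, were also known. The p-value for 4T1 against 4T07 is therefore not independent of the choice of Kcnk2.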

How the results depend on the processing

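Of 467 recomputed values, 33 main counts or usage values moved, 17 differences for single members changed sign, 12 lost a call and 4 gained one. With site reads taken from the peak lists, usage was 1.64% for Gpr126 in 4T07, 34.0% and 42.0% for Kcnk2 in 4T07 and 4T1, and 0%, 7.69% and 0% for the nearer Pde4d site in 4T07, 4T1 and 168FARN, because lists lack peaks that the tables count. An authors' adjusted p of at most 0.01 left 687 of 2311 entries and 16 of the 17 of these genes. Fitting only the libraries compared called 5162 peaks for 4T07 against 168FARN, against 3401. For usage between 4T1 and 4T07, 14 sites became 6 with TMM and 5 with DESeq2. For site reads DESeq2 called 8, against 25, between 4T1 and 4T07 and 20, against 39, between 168FARN and 67NR. With DESeq2 the Kcnk2 usage difference between 4T1 and 4T07 had an adjusted p of 0.0904. Without a low-count filter the Kcnk2 downstream peak under U1 block had an edgeR adjusted p of 0.282. TMM gave an edgeR adjusted p of 0.0480 to the Gpr126 site between 4T1 and 4T07 and 0.0351 to the Camk1d site between 168FARN and 67NR. DESeq2 gave the Pde4d site between 168FARN and 67NR 0.112.

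Under U1 block the Camk1d site difference was 0.17 with DESeq2's size factors, 0.0013 with the replicate block and 0.069 with only the libraries compared, and that of the Gpr126 downstream peak was 0.21 and 0.040 with the first and last of these. The Gpr107 downstream peak was 0.0096 between 4T1 and 168FARN with only the libraries compared. Without 168FARN replicate 2 the fitted Kcnk2 difference from 67NR was 4.05. Leaving out 1 replicate gave 1372 to 1598 called peaks for 4T07 against 168FARN, 1821 to 3433 for 4T1 against 168FARN, 1451 to 2711 for 4T1 against 4T07 and 2221 to 4270 for 4T1-U1-ASO against 4T1. It gave 6 to 18 sites for usage, 0 to 19 for site reads and 32 to 67 for last-exon reads between 4T1 and 4T07. Between 168FARN and 67NR it gave 0 to 15 for usage and 23 to 31 for site reads. Member differences ranged from -0.46 to 0.52 (Camk1d site, U1 block), -0.55 to 0.64 (Gpr126 downstream peak, U1 block), -0.49 to 0.23 (Gpr107 downstream peak, 4T1 against 168FARN), -0.96 to 0.69 (Pde4d last exon, 168FARN against 67NR), and, between 4T1 and 4T07, -0.20 to 0.64 (Gpr126 last exon), -0.93 to 0.10 (Camk1d site) and -0.30 to 0.10 (Kcnk2 site). The Pde4d site between 168FARN and 67NR lost its call without 168FARN replicate 2 and without either 67NR replicate (edgeR adjusted p = 0.0973, 0.179 and 0.0639). The labels do not say whether libraries with the same replicate number were handled together. Correlations of their deviations were 0.003 to 0.50, the highest for 4T1 with 67NR. Whether such libraries share a batch was not tested, and the main fits held no replicate term. With the replicate block, 3766 peaks were called under U1 block and 11 and 14 sites for usage in the 2 line comparisons, and no call for a member changed. The causes were not tested. Site counts of at most 10 reads per library limit Gpr126.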

Other observations

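The stretch between the Gpr126 site and its main downstream peak, 92.2 kb on the minus strand, held 11 and 11 listed peaks with 44 and 32 reads in 4T1-U1-ASO, and 3 and 5 peaks with 16 and 15 reads in 4T1. Neither peaks nor unscaled reads overlapped between the groups. The 4T1-U1-ASO lists held 100236 and 98270 peaks in all, against 54210 and 66543 in 4T1. The 4T1 lists also lacked a larger share of sites with counted reads than the 4T1-U1-ASO lists, as given above. In Kcnk2 the same kind of stretch, 68.9 kb, held 4 and 3 peaks with 5 and 5 reads in 4T1-U1-ASO and 4 and 3 peaks with 5 and 5 reads in 4T1. In Pde4d it held 3 and 3 peaks with 3 and 4 reads in 4T1-U1-ASO and 4 and 7 peaks with 7 and 8 reads in 4T1. In Camk1d, 84.7 kb, it held 5 and 6 peaks with 49 and 8 reads in 4T1-U1-ASO and 3 and 2 peaks with 15 and 4 reads in 4T1, and the reads overlapped. In Gpr107, 23.3 kb, it held 4 and 7 peaks with 44 and 63 reads in 4T1-U1-ASO and 2 and 5 peaks with 31 and 40 reads in 4T1, most of them in the first of its last-exon peaks, with 39 and 53 reads in 4T1-U1-ASO and 30 and 31 in 4T1. Reads are unscaled. These values were not tested, and the stretches were not checked for other genes on the strand.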
